A study of Drosophila melanogaster with 6 samples.

Results

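The odorant-binding proteins of the fruit fly Drosophila melanogaster were examined in the oviduct, the duct that carries eggs from the ovary to the uterus. Members were taken by name: probe sets annotated to a single gene whose current symbol is Obp followed by a number, or lush, the family member named for its mutant phenotype. RefSeq lists 52 such genes, and 36 of them had a probe set of their own, out of 10844 genes with one; each of the 36 had 1 probe set. The other 16, among them Obp22a, Obp49a, Obp51a, Obp56f, Obp56i, Obp57d, Obp57e and Obp83a, were not analysed here. The samples were 6 Affymetrix arrays of RNA from whole oviducts, 3 from unmated females and 3 from mated females dissected 3 h after mating had ended. Females of both groups were 3 days old, unmated females were dissected at matching times, and the tracts of 400 to 500 females were pooled. Strain, genotype and mating partner are not given in the sources used here. The labels call the arrays biological repeats without saying whether each array had a pool of its own, so p-values measure the spread between these arrays, which may be partly technical.

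Odorant-binding proteins are small secreted proteins, folded from alpha helices around a pocket for hydrophobic ligands and held together by disulphide bridges. They are best known from the lymph that bathes the dendrites of olfactory and taste neurons, where they carry or buffer odorants, tastants and pheromones. Members differ in their cysteines: the classic form has the full conserved set, the minus-C form has lost a pair, the plus-C form has additional ones, and the dimer form holds a pair of binding domains in a single chain. The family is not confined to sense organs. Obp44a is known from glia of the nervous system, Obp99b from fat tissue of the male head, and several members, including Obp8a, Obp56e and Obp56g, from seminal fluid.

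Values are the authors' intensities on a linear scale, 1 per probe set and array. Unmated arrays 1 and 2 stood apart from the other 4, with medians over 13966 probe sets of 86.2 and 86.0 against 60.6 to 66.4. Summed ovary and eggshell markers (14 of 16 measured) reached 13066 and 13307 on those arrays, against 3334 on unmated array 3 and 1944 to 4920 on the mated arrays. Summed midgut and tubule markers (9 of 11 measured) reached 2893 and 3591 there, against 582.5 on unmated array 3 and 359 to 588 on the mated arrays. The tissue label was checked on markers of the oviduct wall: the octopamine receptor gene Octbeta2R and the metalloproteinase inhibitor gene Timp lay above the array median on all 6 arrays, as did 4 of 4 measured muscle genes and 4 of 4 measured genes of septate junctions. Mmp2, the third oviduct marker measured, lay above it on 2 arrays.

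Most of the family was dim in the oviduct. No detection call entered the comparison, and a member was called present when its intensity exceeded the median of the array's probe sets on all 6 arrays, and dim when it fell below that median on all 6. By this measure 4 members were present (Obp99a, Obp99c, Obp44a and Obp18a), 28 were dim, and 4 (Obp56d, Obp47b, Obp19c and Obp56c) crossed the median from array to array. Present members made up 11.1% of the family, against 42.0% of all 10844 genes. The measure describes a probe set's place on its array and does not rank transcripts, because probe sets differ in how strongly they respond. It also does not by itself show that a gene is expressed: SP, the sex peptide gene of the male accessory gland, read 143, 113 and 114 in unmated oviducts against 98.8, 154.5 and 77.4 in mated ones, above the median on all 6.

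**Figure D1:**
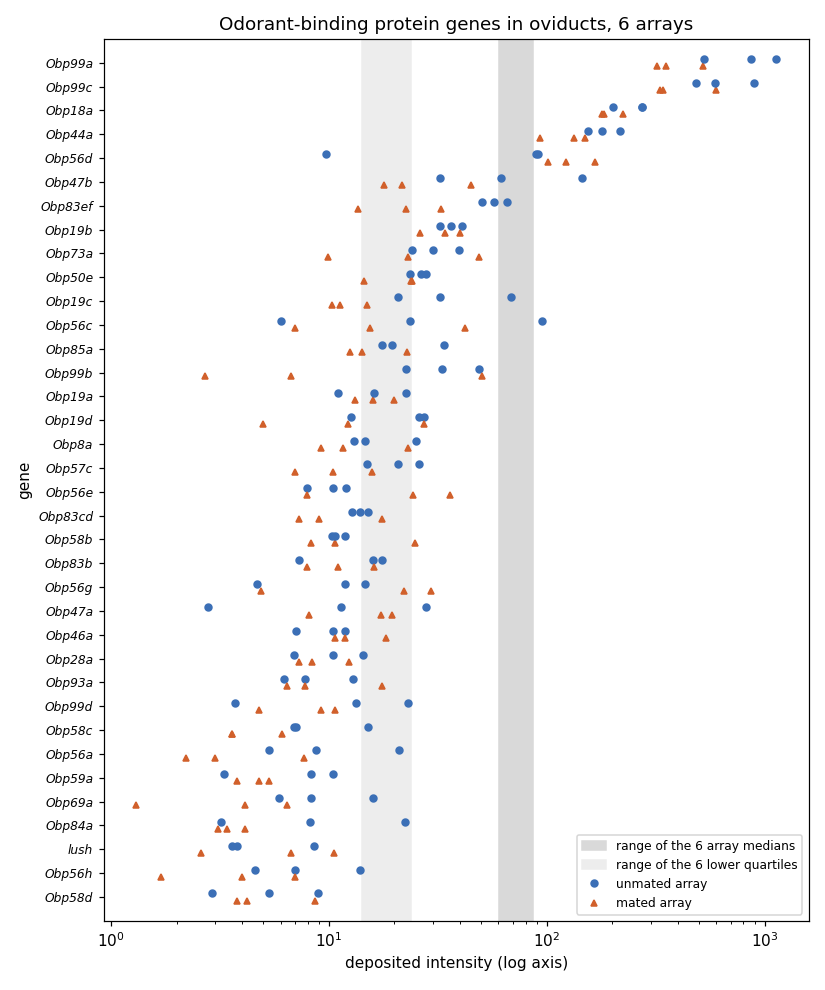
Deposited intensity (log axis) of the 36 odorant-binding protein genes, ordered by mean log2 level, with circles for the 3 unmated and triangles for the 3 mated arrays. The darker band spans the 6 array medians and the paler band the 6 lower quartiles; Obp99a, Obp99c, Obp18a and Obp44a lie above the darker band on every array, and most values of the other members lie within or below the paler one.

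Obp99a, a minus-C member, had intensities of 1134, 867 and 527 in unmated oviducts (arrays 1, 2 and 3, the order kept throughout) against 522, 321 and 354 in mated ones. Unmated arrays 1 and 2 were the highest. It stood between percentiles 79.9 and 93.5 of the probe sets on its arrays. Obp99c, another minus-C member, was at 486, 892 and 591.5 in unmated oviducts against 601, 332 and 344 in mated ones, between percentiles 80.5 and 91.7. Both lay above the upper quartile on all 6 arrays, and no other member did.

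Obp44a, the minus-C member known from glia, was at 180, 217 and 155 in unmated oviducts and at 149, 92.8 and 134 in mated ones. Its place ran from percentile 57.0 to 70.9. Obp18a, a classic member, was at 274, 274 and 202 in unmated and at 223, 183 and 179 in mated oviducts, between percentiles 70.1 and 75.8. Of the neuronal and sensory markers measured beside them, elav, a marker of neurons, exceeded the array median on 2 arrays, with 76.4 and 73.5 on mated arrays 2 and 3. Orco, the co-receptor of odorant receptors, stayed between 13.4 and 20.0, below the array median on all 6. No glial marker was listed, so glia were not examined. Of the 6 markers listed for sensory neuron and antenna, 4 were measured, with a summed intensity of 82 to 114 in unmated and 95.5 to 145 in mated oviducts.

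By structure, 3 of 6 measured minus-C members were present, against 1 of the 30 other members. All of the 8 measured plus-C members and both dimer members missed the criterion, as did 19 of the 20 measured classic ones. Neighbouring genes fell into different classes. Obp99a, Obp99c, Obp99d and Obp99b lie in that order with at most 10 other genes between successive members, yet Obp99d ran from 3.7 to 23.1 and Obp99b from 2.7 to 50.5, both dim. The Obp19a to Obp19d group, 4 neighbouring genes, had no present member, and neither did the 4 measured genes of Obp59a and Obp58b to Obp58d.

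The 6 measured members best known from the antenna were dim. Obp28a, an abundant antennal protein, had intensities of 6.9 to 14.4. For lush, which is needed for the response to the male pheromone cis-vaccenyl acetate, they were 2.6 to 10.6, and for Obp69a 1.3 to 16. Obp83b had 7.3 to 17.5, Obp84a 3.1 to 22.3 and Obp19d 5.0 to 27.4. Obp28a, lush, Obp69a and Obp83b lay below the lower quartile of every array, among 9 members that did so. Obp59a, known from the sensing of humidity, was another, at 3.3 to 10.5. In all, 106 of the 216 member intensities were under 14.2, the lowest lower quartile of any array; fold differences between such values are not exact.

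The 3 seminal fluid members measured were dim as well. Obp22a, Obp51a, Obp56f and Obp56i, also listed for seminal fluid, were not analysed here. Obp56e was at 7.9, 12.0 and 10.5 in unmated oviducts against 24.3, 35.8 and 7.9 in mated ones. Obp56g was at 14.6, 11.8 and 4.7 against 22.2, 29.3 and 4.9. For both genes mated arrays 1 and 2 lay above every unmated array and mated array 3 did not. Obp8a was at 13.0, 14.6 and 25.2 against 9.2, 23.1 and 11.6. Of 20 listed markers of the male accessory gland and ejaculatory bulb 15 were measured and 13 were dim, and their summed intensity was 242 to 374 in unmated and 201 to 332.5 in mated oviducts.

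Receptors of smell and taste were mostly dim too. Odorant, gustatory and ionotropic receptor genes, which belong to sensory neurons, served as a reference: 124 were measured, 4 of them (3.2%) were present, and 71.0% were dim, against 77.8% of the odorant-binding proteins. The present receptors were Or22c, Or46a, Gr98d and Ir75b, none of them above the upper quartile on all 6 arrays. The 90th percentile of the receptor genes ran from 49.5 to 95.9 over the arrays, and the same 4 odorant-binding proteins exceeded it on all 6. By definition some receptor genes exceed it too, among them Or22c on all 6 arrays, so passing it does not by itself show expression.

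**Figure D2:**
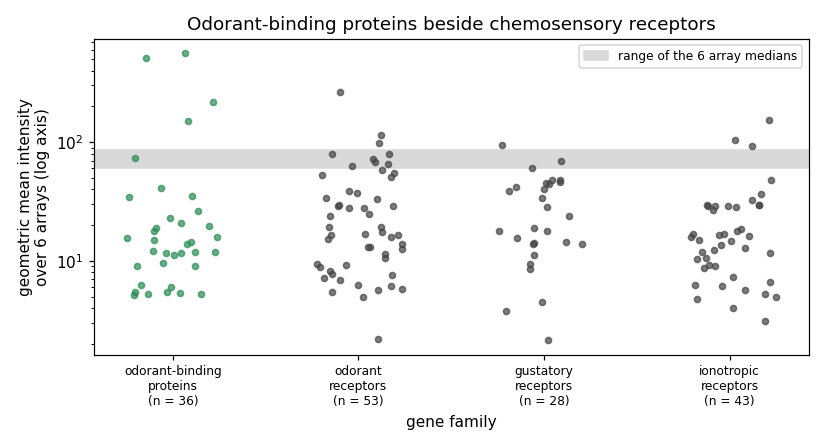
Geometric mean intensity over the 6 arrays (log axis) of each gene in 4 families, 1 point per gene, with the range of the array medians as a band. Among the 36 odorant-binding proteins 4 points lie clear above the band; most genes of every family lie below it. Sideways position within a family is arbitrary.

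The comparison of mated with unmated females asks which of these transcripts differ 3 h after mating. No member passed the test. In limma at an adjusted p of 0.05, 0 of 36 members were higher and 0 lower in mated oviducts, against 0% of the 13966 probe sets in each direction; adjusted p of the members ran from 0.674 to 0.999. At an unadjusted p of 0.05, 4 members were lower (Obp83ef, Obp19c, Obp99a and Obp58c), or 11.1%, against 5.56% of probe sets, and 0 were higher, against 1.04%. Without the 2 unmated arrays that stood apart, the log2 difference was -2.51 for Obp19c and 3.72 for Obp56d. That fit sets 3 mated arrays against 1 and takes each gene's own spread from the mated arrays alone. These differences so rest on single readings of unmated array 3, 68.2 for Obp19c and 9.7 for Obp56d. All 3 mated values lay below all 3 unmated values in 5 members (13.9%), against 8.59% of probe sets. They lay above them in 1 member (2.78%), against 2.33%.

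By mean log2, 26 members were lower and 10 higher in mated oviducts; of all probe sets 62.7% were lower and 37.3% higher. The median log2 difference of the members, mated minus unmated, was -0.44, against -0.16 for all genes, so it was -0.28 relative to them. The size depended on the arrays and on the level of the members. It was -0.21 without unmated arrays 1 and 2 (-0.22 relative to all genes). Without unmated array 2 it was -0.29, without unmated array 3 -0.63, and without mated array 3 -0.26. With 32 added to each intensity before log2 it was -0.15 (-0.06 relative). Among only the probe sets above the median level, which held 5 members, it was -0.57 (-0.53 relative). For the 4 present members it was -0.60, and for the other 32 it was -0.42. The median of all 36 members kept its sign under quantile normalization (-0.12), median centring (-0.17) and cyclic loess (-0.07). Each of these moved the median of all genes by over 0.1, to between -0.00 and 0.11. The unmated arrays that stood apart held the high values: the median deviation of a member from its own mean was 0.26, 0.51 and -0.10 in unmated oviducts against -0.33, 0.24 and -0.41 in mated ones. Mated array 2 lay above unmated array 3, which makes the groups overlap. On mated array 2 the median deviation was -0.66 for the 4 present members and 0.33 for the other 32. For the present members mated array 1 lay above unmated array 3, at 0.01 against -0.02. Over all genes the median deviation was 0.18, 0.21 and -0.10 in unmated oviducts against -0.06, -0.01 and -0.12 in mated ones.

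**Figure D3:**
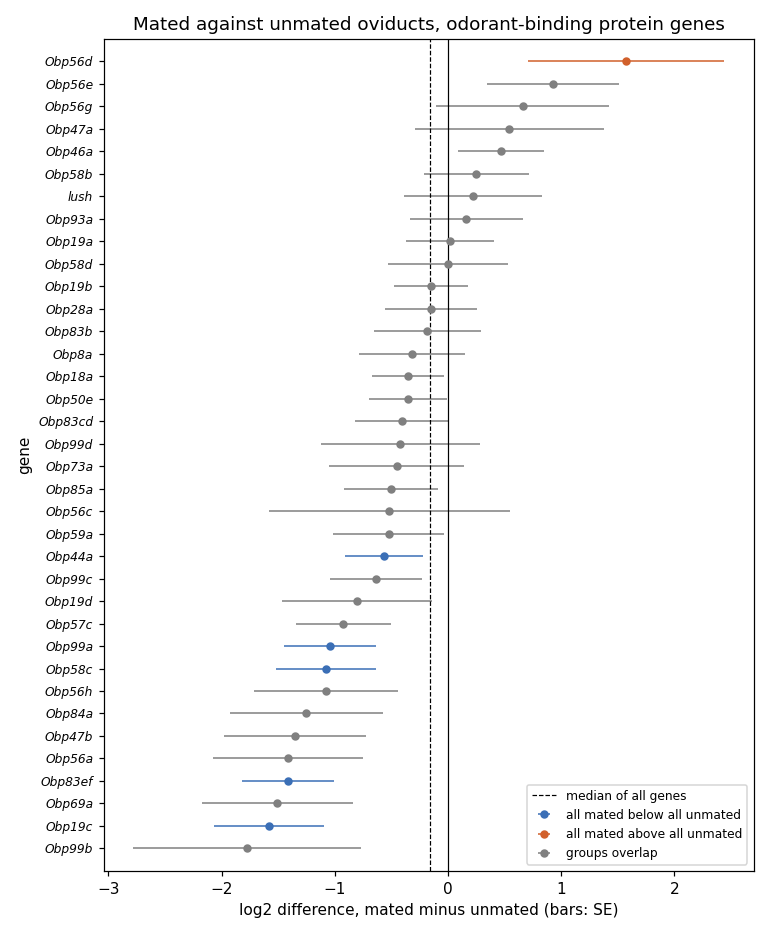
Log2 difference of mated minus unmated oviducts for the 36 odorant-binding protein genes, with SE from limma. Colour marks the 5 genes whose mated values all lie below the unmated ones and Obp56d, whose mated values all lie above; the dashed line is the median of all genes, -0.16, and 26 genes lie left of 0.

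Among the minus-C members, Obp99a had a mean of 843 ± 304 for unmated and 399 ± 108 for mated females (SD, n = 3 arrays each). Its log2 difference was -1.04 ± 0.41 (SE), with an unadjusted p of 0.0377 and an adjusted p of 0.745 in limma. The groups did not overlap, but by a margin of 4.7 intensity units, between 526.9 on unmated array 3 and 522.2 on mated array 1. Without unmated arrays 1 and 2 the difference was -0.43. Obp99c averaged 656.5 ± 211 and 425 ± 152, a log2 difference of -0.64 ± 0.40 (SE), and its groups overlapped. That difference was -0.39 without unmated array 2 and -0.37 after median centring. Obp44a averaged 184 ± 31.2 and 125 ± 29.3, a log2 difference of -0.57 ± 0.34 (SE), with a margin of 5.8 between the groups. It was -0.34 without unmated arrays 1 and 2, -0.37 without mated array 2 and -0.30 after median centring.

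Markers of fat body, the storage and secretory tissue of the fly, were lower in mated oviducts by mean log2 in 6 of 6 measured, against 62.7% of all probe sets. Their median log2 difference was -0.42, against -0.16 for all genes, and the order of the arrays differed among them. Of 9 listed markers 6 were measured and 5 were present, and their summed intensity was 15074 to 28292 in unmated and 9018 to 15756 in mated oviducts. Most of that sum came from the yolk protein genes Yp1, Yp2 and Yp3. Yp1, which like the other yolk protein genes is expressed in fat body and in follicle cells of the ovary, was at 12586, 7868 and 6344 in unmated oviducts against 5923, 3447 and 4642 in mated ones. The order of the 6 arrays was the same for Obp99a and Yp1, but not for Yp2 or Yp3: mated array 1 came second for Yp2, and mated array 3 lay above mated array 1 for Yp3. The lipoprotein gene apolpp was at 1003, 817 and 209 against 375, 406 and 580, lowest on unmated array 3. Lsp2 was at 310, 242 and 215 against 257, 150 and 158. Fbp1 was at 94.6, 68.4 and 189 against 56.3, 184 and 90.5, highest on unmated array 3. Lower values were not particular to fat body. Of the midgut and tubule markers 9 of 9 measured were lower in mated oviducts by mean log2 (median -1.97). So were 12 of 14 ovary and eggshell markers (-1.34) and 5 of 5 haemocyte markers (-0.17). Higher were 3 of 4 muscle, 3 of 4 septate junction and 3 of 3 oviduct markers. The part of other tissue in the result was not tested, and in pooled tissue fewer cells of a type and less RNA per cell cannot be told apart.

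Among the classic members, Obp18a averaged 250.2 ± 41.4 and 195 ± 24.6, a log2 difference of -0.35 ± 0.32 (SE), and the groups overlapped. It was -0.06 without unmated arrays 1 and 2 and -0.09 after median centring. Obp56d, found in adult chemosensory organs, was the member with all mated values above all unmated ones, at 123, 101 and 167 in arrays 1 to 3 against 89.2, 91.0 and 9.7. Its log2 difference was 1.57 ± 0.87 (SE), with an adjusted p of 0.799 in limma. Unmated array 3 decided that size: the difference was 0.50 without it and 3.72 against it alone, and 0.91 with 32 added before log2. Obp19c, a neighbour of Obp19d, was at 20.8, 32.5 and 68.2 in unmated and at 11.2, 10.3 and 14.9 in mated oviducts. Its log2 difference was -1.58 ± 0.49 (SE), with an adjusted p of 0.674; it was -1.12 without unmated array 3, where the gene stood highest, and -2.51 against that array alone. With 32 added before log2 it was -0.66, and mated values of 11.2 and 10.3 lie under 14.2.

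**Figure D4:**
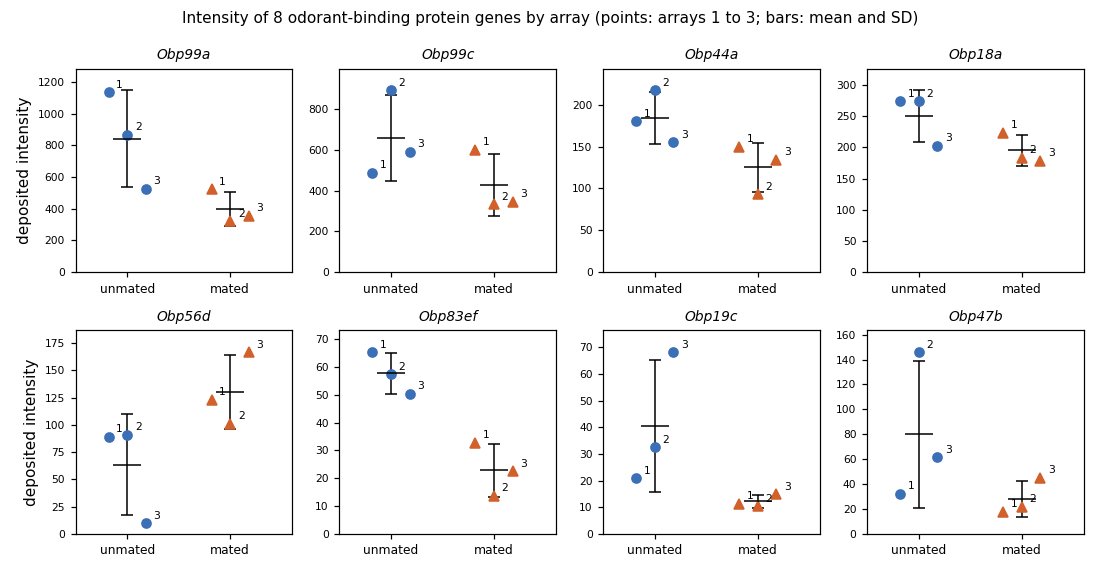
Deposited intensity of 8 odorant-binding protein genes on each array, with the array number beside each point and the mean and SD of each group as bars; each axis starts at 0. The groups of Obp99a and Obp44a nearly touch, those of Obp83ef are apart, and the unmated values of Obp56d are split by array 3 at 9.7.

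Of the dimer members, Obp83ef was at 65.4, 57.5 and 50.5 in unmated oviducts and at 32.7, 13.6 and 22.5 in mated ones. The groups were 17.8 apart, the widest margin of the 5 members that lay lower. Its log2 difference was -1.42 ± 0.41 (SE), with an unadjusted p of 0.00985, the smallest of the family, and an adjusted p of 0.674 in limma. It stayed below the array median on all 6 arrays, and the difference was -0.72 with 32 added to each intensity before log2 and -1.23 without unmated arrays 1 and 2. The other dimer member, Obp83cd, was at 13.9, 15.2 and 12.8 against 9.0, 17.6 and 7.3, with overlapping groups.

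Of the plus-C members, Obp47b was at 32.2, 146 and 61.5 in unmated and at 17.9, 21.7 and 44.8 in mated oviducts, so the groups overlapped. Its log2 difference was -1.35 ± 0.63 (SE), and it was -0.78 without unmated array 2 and -0.79 with 32 added before log2. Obp58c was at 7.1, 15.1 and 6.9 against 3.6, 6.1 and 3.6, every value below the lower quartile of its array. Its log2 difference of -1.08 ± 0.44 (SE) was -0.19 with 32 added before log2, -0.71 without unmated array 2, -0.69 without unmated arrays 1 and 2, and -0.65 and -0.60 after quantile normalization and cyclic loess.

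Obp56c, the last member that crossed the array median, was at 23.5, 94.8 and 6.0 in unmated and at 7.0, 42.1 and 15.4 in mated oviducts. Its log2 difference was -0.52 ± 1.07 (SE) and changed sign without unmated array 2 (0.48) or mated array 1 (0.10). The 26 members not described in this comparison by their differences had intensities from 1.3 to 50.5 and log2 differences from -1.77, for Obp99b, to 0.93, for Obp56e. Of these 17 were lower and 9 higher by mean log2, and the lowest unadjusted p was 0.0576. As a description of the spread between arrays, the median coefficient of variation was 24.5% in unmated and 25.2% in mated oviducts for the 4 present members, and 39.8% and 44.9% for the other 32.

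Other small carriers of hydrophobic ligands were measured beside the family. Of the chemosensory proteins, a separate insect family of soluble carriers, Phk-3 was at 365, 499 and 586 in unmated and at 498, 545 and 705 in mated oviducts, and EbpIII at 400.2, 675 and 646 against 359, 412 and 636. Both were above the upper quartile on all 6 arrays, and their groups overlapped. The third measured, a10, an antennal gene, was at 153, 175 and 64.3 against 55.7, 95.1 and 48.9. Of 8 genes of the Npc2 family, which bind sterols and related lipids, 3 were present: Npc2a at 586 ± 183 and 655 ± 85.3, Npc2h at 381 ± 188 and 243 ± 127, and Npc2b at 167 ± 56.5 and 160 ± 18.6 (SD, n = 3 each). CheB98a was the present member among 8 genes of the CheA and CheB families, with 185 ± 64.6 and 112 ± 29.2. No gene of these lists, of the Snmp genes or of the 124 receptors passed in limma, and the median log2 difference of the receptors was -0.40, -0.24 relative to all genes. Of the 124 receptors 18 lay wholly lower and 2 wholly higher in mated oviducts, against 8.59% and 2.33% of all probe sets. At an unadjusted p of 0.05 in limma 11 were lower and 3 higher, against 5.56% and 1.04%, and the lowest adjusted p was 0.621. The 2 Snmp genes, which encode CD36-like membrane proteins of sensory cells, and the esterase gene Jhedup were not present.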

How the data were processed

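The deposited table gives the authors' intensities on a linear scale for 14010 probe sets on 6 arrays. RMA is named, with no version, in the submitters' processing notes. No log2 transform had been applied, and the mean of the middle 96% of values is 250 on every array; how that scaling was done is not given in the sources used here. Leaving out 44 control probe sets left 13966; 12443 had 1 gene in the platform annotation, 327 several and 1196 were not listed. For 12394 probe sets the symbol was brought up to date by Entrez identifier from RefSeq (Release 6 plus ISO1 MT), which also gave the order of neighbouring genes. A further 2 probe sets name a family gene together with another gene and were not used.

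Log2 intensities, with no offset, filter or further normalization, were fitted with limma 3.58.1 in R 4.3.3 (lmFit and eBayes, two-sided) over all 13966 probe sets, with Benjamini-Hochberg adjustment and a threshold of 0.05. The fit was tested on simulated data. Presence was read against each array's median. Named members were those not dim, those whose groups did not overlap and those with an unadjusted p under 0.05. Of other lists, up to 4 genes per list with the highest mean log2 were named. Lsp2 and Fbp1 of the fat body list were given in addition to these. The markers nos and Peb matched no current symbol exactly and were left out. The members and lists were chosen with earlier results of these data known. Precision is limited by the number of arrays. Alternatives were 3 other scalings, a filter on dim probe sets, an offset of 32, trend and robust variance, weighting of arrays, a block for replicate number, and the omission of arrays.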

Additional observations from a re-analysis of the deposited data

How the results depend on the processing

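No alternative put a member past an adjusted p of 0.05, and the count over all probe sets was 0 in each. Of the 10 members described by their differences, 9 kept the sign in every alternative in which they were tested; groups that do not overlap fix the sign when single arrays are left out. Obp56c turned to 1.46 without both unmated arrays 1 and 2, and over the omission of single arrays it ran from -1.51 to 0.48. The median log2 difference of the members was -0.0722 after cyclic loess against -0.44, and ran from -0.63 without unmated replicate 3 to -0.26 without mated replicate 3. Relative to all genes it was -0.07 after cyclic loess, -0.11 after quantile normalization and -0.06 with an offset of 32. With only probe sets above the median level, which held 5 members, it was -0.53 relative to all genes. The count of present members was 2 with the upper quartile as threshold, 4 with the 90th percentile of receptor genes and 5 with the median on at least 3 arrays; Obp56d joined in the last case, and without unmated replicate 3. No member had more than 1 probe set, so averaging probe sets changed nothing. Members lower at an unadjusted p of 0.05 numbered 4 of 36 with the main settings. The count was 2 after quantile normalization and after cyclic loess, and 1 after median centring. It was 7 with array weights, without unmated replicate 3 and without mated replicate 2. The fit with only probe sets above the median level held 5 members, of which 1 was lower. Members higher numbered 0 with the main settings, 1 after median centring, and 2 after quantile normalization, after cyclic loess and without mated replicate 3; in the last case these were Obp56e (1.56) and Obp56g (1.45). With the replicate block 5 members were lower, Obp56h joining, and 0 passed the adjusted threshold. The share of all probe sets at this unadjusted p was not counted under the alternatives, so changes in these counts are not a result about the family. The median log2 difference of all genes moved too. It was -0.16 with the main settings, -0.23 with array weights, -0.27 without unmated replicate 3 and -0.19 without mated replicate 2. The labels number the arrays 1 to 3 in each group, but the deviations of same-numbered arrays correlated at -0.177, 0.0251 and -0.086, so the numbers were not taken as pairs. The cause of these changes was not tested. Low signal limits every value under 14.2.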

Other observations

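The values in these paragraphs were chosen after the data had been seen. The log2 ratio of Obp99a to the yolk protein gene Yp1 stayed between -3.71 and -3.18 over the 6 arrays, and that of Obp99a to Yp3 between -3.49 and -2.69. The mated minus unmated difference of these ratios was -0.13 and -0.08. Each is the log2 difference of Obp99a, -1.04, minus that of the yolk gene, -0.91 for Yp1 and -0.96 for Yp3. Any gene with a log2 difference close to that of Obp99a gives a small value by construction. These values therefore do not test the cause of the Obp99a difference. Against Yp2 the difference was -0.66. For Obp99c the ratio to Yp1 ranged more widely, from -4.69 to -3.14. The differences of the ratios to Yp1 and Yp3 were 0.275 and 0.33 for Obp99c, 0.34 and 0.40 for Obp44a, and 0.56 and 0.61 for Obp18a. Those of the ratios to Yp2 were -0.25 for Obp99c, -0.19 for Obp44a and 0.03 for Obp18a. The cause of these differences was not tested. A ratio of probe sets has no meaning as a ratio of transcripts, only its change between arrays does.

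Obp99b, the dim neighbour of Obp99a and Obp99c, read 48.9, 22.5 and 33.2 in unmated oviducts against 6.7, 50.5 and 2.7 in mated ones, with mated array 2 apart from the other mated arrays. Without mated replicate 2 its log2 difference was -2.96, with an adjusted p of 0.565 in limma, against -1.77 with all arrays.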
